A study of Homo sapiens with 12 samples.

Results

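The intermediate filament and lamin genes described here are KRT8, KRT18, KRT19, VIM, DES, NES, LMNA, LMNB1 and LMNB2. They were chosen by symbol, by a rule that names no value but was written with earlier results of these data known, and make up 9 of the 56593 distinct gene symbols in the deposited table, and each stood on 1 line of it. RNA-seq had been done on 4 populations from the differentiation of the human embryonic stem cell line H1 toward blood, with 3 libraries for each population. The undifferentiated H1 cells came first. APLNR+ cells of day 2 represented mesoderm. CD31+CD34+ cells of day 5 represented the endothelial stage from which blood progenitors arise. CD43+ cells of day 8 represented blood progenitors. The differentiated populations had been sorted with those surface markers from cultures given activin A and BMP4 first and then VEGF and bFGF, so all 4 populations trace back to a single line and the sort, the medium and the time in culture changed together. The question for these genes was how the filament and lamina composition differed between consecutive populations.

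Intermediate filaments are ropes of coiled-coil proteins that give a cell its resistance to stretching. Keratins 8, 18 and 19 are the keratins of simple epithelia, where a type II keratin such as keratin 8 pairs with a type I keratin such as keratin 18 or 19. Vimentin is the filament protein of mesenchymal, endothelial and blood cells, desmin that of muscle, and nestin that of neural stem cells and some endothelial cells. Lamins line the inside of the nuclear envelope: LMNA encodes lamins A and C, which stiffen the nucleus and are usually scarce in embryonic stem cells, while LMNB1 and LMNB2 encode the B-type lamins that most cells hold.

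For a view of the DNA at members that moved strongly, the 250 bases before the RefSeq start site are shown for VIM, which had the largest rise of the 9 genes at any step, and for NES, which fell at the last step. These were the windows that lay within 20 bases of a principal GENCODE transcript start and held no base of an annotated exon of the gene. The VIM window is chr10:17227991-17228240 on the plus strand and the NES window chr1:156677408-156677657 on the minus strand (RefSeq, GRCh38.p14). Capitals mark the GC box, GGGCGG read on either strand.
VIM: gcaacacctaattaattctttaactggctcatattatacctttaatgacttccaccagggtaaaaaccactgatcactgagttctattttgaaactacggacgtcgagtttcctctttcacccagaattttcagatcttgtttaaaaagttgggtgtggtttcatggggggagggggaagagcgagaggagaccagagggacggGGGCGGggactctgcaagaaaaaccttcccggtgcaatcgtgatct
NES: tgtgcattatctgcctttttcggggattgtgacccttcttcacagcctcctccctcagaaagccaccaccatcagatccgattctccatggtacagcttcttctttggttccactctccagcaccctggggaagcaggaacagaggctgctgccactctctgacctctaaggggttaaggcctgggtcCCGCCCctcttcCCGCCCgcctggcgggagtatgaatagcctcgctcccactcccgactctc
VIM held 1 GC box and NES 2, against a share of 42.6% of all 35116 RefSeq windows of this length with at least 1. GC content was 46.0% in the VIM window and 58.0% in the NES window, and the median window stood at 58.0%. The letters TATAAA (in 10.7% of windows), TGANTCA (6.57%) and TTTNGCGC (1.51%), searched on both strands, were found in neither window.

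All 9 genes were above 0 in all 12 libraries, and all 9 passed the filter of at least 1 FPKM (fragments per kilobase of transcript, scaled to the mapped fragments of a library) in 3 libraries, which left 14840 genes for testing. A gene is called raised or lowered where limma on log2(FPKM + 1) gave a Benjamini-Hochberg adjusted p under 0.05 over all genes tested and a change of at least 2-fold on that scale. The table holds no counts, so absolute depth is unknown and relative depth is an approximate estimate from low FPKM values. By it, replicate 1 had the lowest relative depth of its population in each case, at 0.553 to 0.745 of the depth of CD43+ replicate 3, while the others stood at 1 to 1.27. The labels number the replicates but do not say that they came from separate cultures, so p-values measure the spread between these libraries. The sort markers fitted the labels: APLNR lay between 359 and 402 FPKM in APLNR+ libraries against at most 0.688 in H1, PECAM1 (CD31) between 50.9 and 59.0 and CD34 between 39.8 and 53.4 in CD31+CD34+ libraries against at most 0.248 and 1.1203 in the earlier populations, and SPN (CD43) between 60.3 and 90.6 in CD43+ libraries against at most 4.20 elsewhere. PECAM1 was higher still in CD43+ libraries, at 82.6 to 104 FPKM, and CD34 was 17.4 to 25.1 there. APLNR lay in much the same range in the CD31+CD34+ libraries, at 381 to 429 FPKM.

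From H1 to APLNR+ cells, 4 of the 9 genes were raised and none was lowered: KRT8, KRT19, VIM and LMNA. Over all genes tested 8.3% were raised and 7.62% lowered. In 8 of the 9 genes the 3 APLNR+ libraries did not overlap the 3 H1 libraries, against 66% of all genes. The median log2 change was 0.75 over the 9 genes and -0.12 over all genes.

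From APLNR+ to CD31+CD34+ cells, DES and LMNA were raised and LMNB1 was lowered. The background was 12.5% of genes raised and 17.1% lowered. Libraries of both populations were apart in 6 of the 9 genes, below the 75.7% of all genes, so at this step the genes did not stand out by the number that moved. Their median log2 change was 0.50, with -0.01 over all genes.

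From CD31+CD34+ to CD43+ cells the direction turned. Lowered were 6 of the 9 genes (KRT8, KRT18, KRT19, VIM, NES and LMNA), against 8.79% of all genes, and none was raised, against 5.58%. All 9 genes lay lower in every CD43+ library than in any CD31+CD34+ library, where 58% of all genes had libraries that were apart in either direction. The median log2 change was -1.67 over the 9 genes and 0.00 over all genes. These are RNA levels in bulk samples, in which fewer cells of a type and less RNA per cell cannot be told apart.

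**Figure D1:**
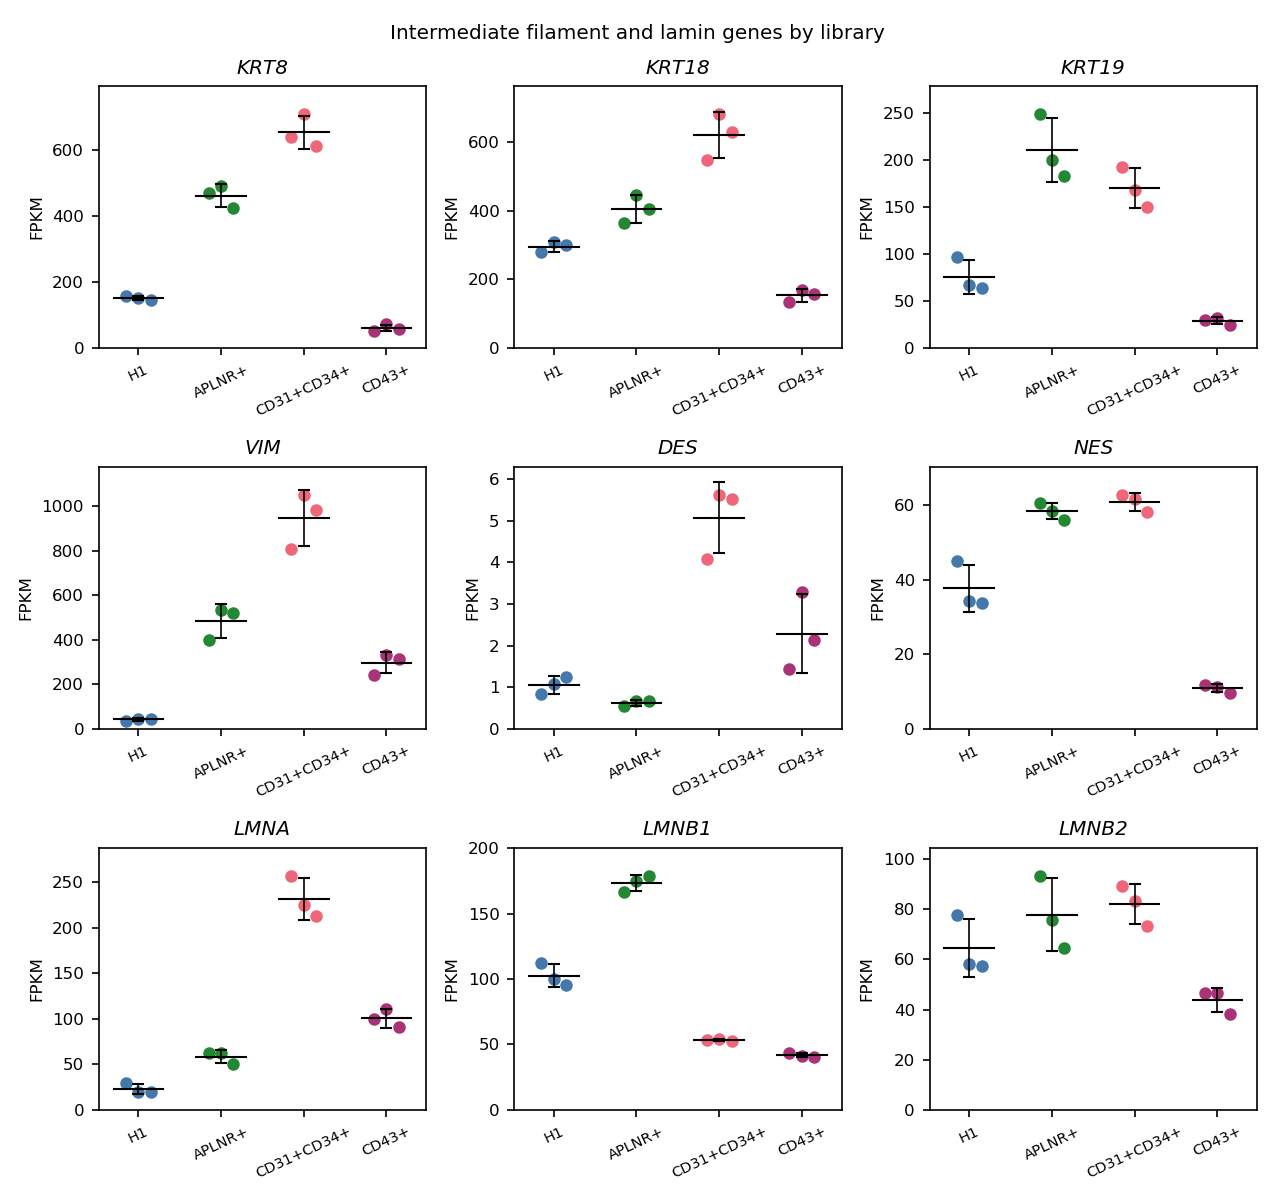
Each panel plots 1 gene, with FPKM on a linear axis from 0, the 3 libraries of each population as points, the mean as a horizontal line and the SD as the error bar. KRT8, KRT18, VIM, DES and LMNA peak in CD31+CD34+ cells, while LMNB1 peaks in APLNR+ cells at a mean of 173 FPKM.

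KRT8 encodes the type II keratin of simple epithelia. Its level in replicates 1, 2 and 3 was 158, 152 and 145 FPKM in H1, 470, 492 and 424 in APLNR+, 639, 709 and 613 among CD31+CD34+ and 51.4, 71.1 and 58.9 among CD43+ cells. The 4 populations formed 4 separate bands, with CD31+CD34+ on top and CD43+ at the bottom. The APLNR+ mean was 3.04-fold that of H1, or 1.60 ± 0.12 on the log2 scale (SE; adjusted p from limma, 2.2e-07). A further 1.42-fold difference to CD31+CD34+ cells fell short of the fold threshold, at a log2 change of 0.50 ± 0.12 and an adjusted p of 0.00195. In CD43+ cells KRT8 was 10.8-fold lower than in CD31+CD34+ cells, at a log2 change of -3.42 ± 0.12 (adjusted p = 5.22e-10), the largest fall of the 9 genes at any step. CD43+ cells also lay below H1, by a log2 change of -1.32.

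KRT18, the type I partner of KRT8, was measured at 279, 308 and 300.0 FPKM in H1, 365, 445 and 404 in APLNR+, 548, 681 and 629 among CD31+CD34+ and 133, 169 and 157 among CD43+ libraries. The order of the populations was that of KRT8, with no overlap, but the span was narrower. Neither upward difference reached 2-fold: the log2 change was 0.45 ± 0.12 at the first step and 0.61 ± 0.12 at the second. The fall into CD43+ cells was 4.05-fold (log2 change -2.01 ± 0.12, adjusted p = 3.83e-08). Against H1 the CD43+ mean was 1.93-fold lower, just inside the fold threshold and not called.

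The ratio of KRT8 to KRT18 FPKM, taken within each library, changed too. It was 0.515 ± 0.0461 (SD, n = 3) in H1, 1.15 ± 0.124 in APLNR+, 1.06 ± 0.0973 among CD31+CD34+ and 0.394 ± 0.0234 among CD43+ cells. KRT18 exceeded KRT8 in every H1 and CD43+ library, whereas KRT8 exceeded KRT18 in 5 of the 6 libraries between. On the log2 scale the ratio was higher by 1.15 in APLNR+ than in H1 cells and differed by -1.43 between CD43+ and CD31+CD34+ cells, with an exact two-sided permutation p of 0.1 for each. That is the smallest p that 3 libraries against 3 can give, so no such comparison can reach 0.05; over the 40 comparisons of shares, ratios and sums made, these p-values adjust to 0.121. Between APLNR+ and CD31+CD34+ cells the ratios overlapped (exact permutation p = 0.4).

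KRT19 encodes a type I keratin that is common in ducts and in embryonic epithelia. Its values were 96.6, 67.3 and 63.8 FPKM in H1, 249, 200.3 and 183 in APLNR+, 193, 168 and 151 among CD31+CD34+ and 29.9, 31.8 and 24.7 among CD43+ cells. Unlike KRT8 and KRT18 it had its highest mean in APLNR+ cells, though the APLNR+ and CD31+CD34+ libraries overlapped and the log2 change between them, -0.30 ± 0.17, did not pass the test (adjusted p = 0.131). APLNR+ cells exceeded H1 by 2.78-fold (log2 change 1.47 ± 0.17, adjusted p = 1.4e-05). The fall into CD43+ cells was 5.92-fold (log2 change -2.53 ± 0.17, adjusted p = 1.43e-07).

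The other keratins on the list drawn up around these genes were sparse. Of 16 listed, 2 passed the filter, KRT7 and KRT10, which are named because the count is small and were chosen after their values were seen. KRT7, a type II keratin of simple epithelia, fell from 5.84 ± 0.386 FPKM before differentiation to 0.976 ± 0.363 in the APLNR+ libraries (log2 change -1.81, adjusted p = 7.23e-06), the opposite direction to KRT8. KRT10 was not called at any step. Markers of amnion and trophoblast, tissues rich in simple keratins, summed to no more than 13.2 FPKM over 8 genes in any library, with CGA and CGB5 at 0 in every H1 and CD43+ library. Their range was 6.28 to 6.90 FPKM in H1, 11.6 to 12.8 in APLNR+, 11.3 to 13.2 among CD31+CD34+ and 3.69 to 4.95 among CD43+ cells. Most of the H1 sum was KRT7 itself, at a mean of 5.84 FPKM. TFAP2C, GATA3, ISL1 and TFAP2A were lower in H1 and CD43+ cells than in the populations between. Their means were at most 0.558 FPKM in H1 and 4.79, 2.70, 2.20 and 1.47 in APLNR+ cells. They were 3.34, 2.70, 3.54 and 1.20 among CD31+CD34+ and 0.684, 1.15, 1.44 and 0.353 among CD43+ cells. The part of such cells in the keratin changes was not tested. Markers of endoderm, whose epithelia also hold simple keratins, had their highest sum in CD31+CD34+ cells, as KRT8 and KRT18 had their highest levels. Over 8 genes they summed to 9.003 to 10.2 FPKM in H1, 65.0 to 71.2 in APLNR+, 78.5 to 82.9 among CD31+CD34+ and 30.7 to 37.5 among CD43+ libraries. Unlike KRT8 and KRT18, the sum stayed above that of H1 in CD43+ libraries. Most of the H1 sum was AFP, with means of 8.56 FPKM in H1 and 0.990 in APLNR+ cells. GATA6 was highest in APLNR+ cells (42.0) and TTR in CD43+ cells (4.37). The highest of the endoderm markers in CD31+CD34+ cells were SOX17, HHEX, CXCR4 and GATA6, with means of 24.2, 19.0, 18.0 and 16.3 FPKM. Whether the sorted endothelial cells themselves expressed these genes was not tested. AFP, FOXA2, FOXA1 and TTR stood at 2.57, 0.899, 0.210 and 0.205 in CD31+CD34+ cells. The part of endoderm cells was not tested either.

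Reads of KRT8 and KRT18 can be shared with their many processed copies in the genome. The table lists 50 KRT8 pseudogene symbols, which summed to between 2.43% and 13.0% of KRT8 FPKM in a library, and 67 for KRT18, at 0.500% to 2.55%. How the counting split such reads is not given in the sources used here. KRT8 and KRT18 are also next to each other in the genome, with no other protein-coding gene between them in the RefSeq annotation.

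VIM, which encodes vimentin, moved most between H1 and APLNR+ cells. Its values were 37.2, 46.6 and 43.2 FPKM in H1, 398, 534 and 521 in APLNR+, 807, 1049 and 981 among CD31+CD34+ and 244, 333 and 314 among CD43+ cells. No populations overlapped, and every later population lay above H1. The first rise was 11.4-fold (log2 change 3.48 ± 0.16, adjusted p = 2.68e-09). The second difference, 1.95-fold, was just under the threshold on the log2 scale, at 0.97 ± 0.16 (adjusted p = 0.000132), and it passed when APLNR+ replicate 2 or 3 or CD31+CD34+ replicate 1 was left out, with log2 changes of 1.04, 1.03 and 1.08. VIM then ranked between 79 and 101 of the 14840 genes. In CD43+ cells it fell by 1.67 on the log2 scale, 3.19-fold (adjusted p = 2.53e-06), and remained 7.0-fold above H1 (log2 change 2.77 ± 0.16, adjusted p = 8.64e-09).

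DES, the muscle filament gene, was near the lower limit of the filter. It stood at 0.838, 1.07 and 1.25 FPKM in H1, 0.546, 0.675 and 0.668 in APLNR+, 4.09, 5.62 and 5.52 among CD31+CD34+ and 1.43, 3.30 and 2.14 among CD43+ cells. CD31+CD34+ libraries lay above all others. The ratio of means to APLNR+ cells was 8.06, and the log2 change of 1.89 ± 0.18 (adjusted p = 1.52e-06) is smaller than that ratio because 1 FPKM is added to low values. The difference to CD43+ cells was not called at a log2 change of -0.91 ± 0.18, but passed the fold threshold with 0.1 FPKM added in place of 1 (-1.18). Summed markers of smooth and cardiac muscle followed another course, at 82.6 to 113 FPKM in H1, 588 to 745 in APLNR+, 408 to 444 among CD31+CD34+ and 48.8 to 63.7 among CD43+ cells. The highest muscle markers in CD31+CD34+ cells were TAGLN, ACTC1 and MYL7, with means of 274, 103 and 23.1 FPKM, while MYH11, MYH6 and TNNT2 were under 1 FPKM there. Members differed: from APLNR+ to CD31+CD34+ cells TAGLN fell from 466, MYL7 from 108 and CNN1 from 22.5 to 15.3. ACTC1 rose from 68.5 and ACTA2 from 1.53 to 13.3, as DES rose. In CD43+ cells ACTC1 was 3.12 and ACTA2 34.8. The part of muscle cells in the DES result was not tested. The sum over 8 fibroblast and stroma markers was highest where DES, VIM and LMNA were, at 483 to 567 FPKM in CD31+CD34+ cells, against 135 to 190 in H1, 156 to 174 in APLNR+ and 184 to 245 in CD43+ cells. There the collagen genes COL1A2 and COL1A1 had means of 251 and 85.01 FPKM, THY1 145, COL3A1 24.2 and PDGFRB 13.2. LUM, DCN and POSTN had 0.585, 0.0200 and 0.828. Not every member peaked there: COL3A1, PDGFRB and DCN were higher in CD43+ cells (44.2, 17.5 and 0.0726 FPKM). LUM and POSTN were higher in APLNR+ cells (2.69 and 22.4), and THY1 was nearly as high in H1 (137). The part of such cells in the result was not tested.

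NES encodes nestin. It was measured at 44.9, 34.3 and 33.7 FPKM in H1, 60.5, 58.5 and 56.1 in APLNR+, 62.7, 61.6 and 58.2 among CD31+CD34+ and 11.7, 11.3 and 9.64 among CD43+ cells. The APLNR+ and CD31+CD34+ libraries overlapped almost fully, with a log2 change of 0.06 (95% interval -0.19 to 0.30; adjusted p = 0.651) that turned to -0.15 after quantile normalization. APLNR+ cells exceeded H1 by 1.55-fold, which was below the fold threshold. The fall into CD43+ cells was 5.60-fold (log2 change -2.39 ± 0.11, adjusted p = 6.73e-09), and CD43+ cells lay 3.47-fold below H1. The sum over 8 neural markers was 106 to 138 FPKM in H1, 38.9 to 53.0 in APLNR+, 87.6 to 103 among CD31+CD34+ and 12.4 to 15.6 among CD43+ libraries, so it was lower at the last step together with NES. Most of that sum was the tubulin gene TUBB3, with means of 118, 44.8, 96.6 and 14.0 FPKM, while the neural transcription factor genes PAX6 and SOX1 had means of at most 0.192 and 0.0113 FPKM in any population. The part of neural cells in the NES change was not tested.

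**Figure D2:**
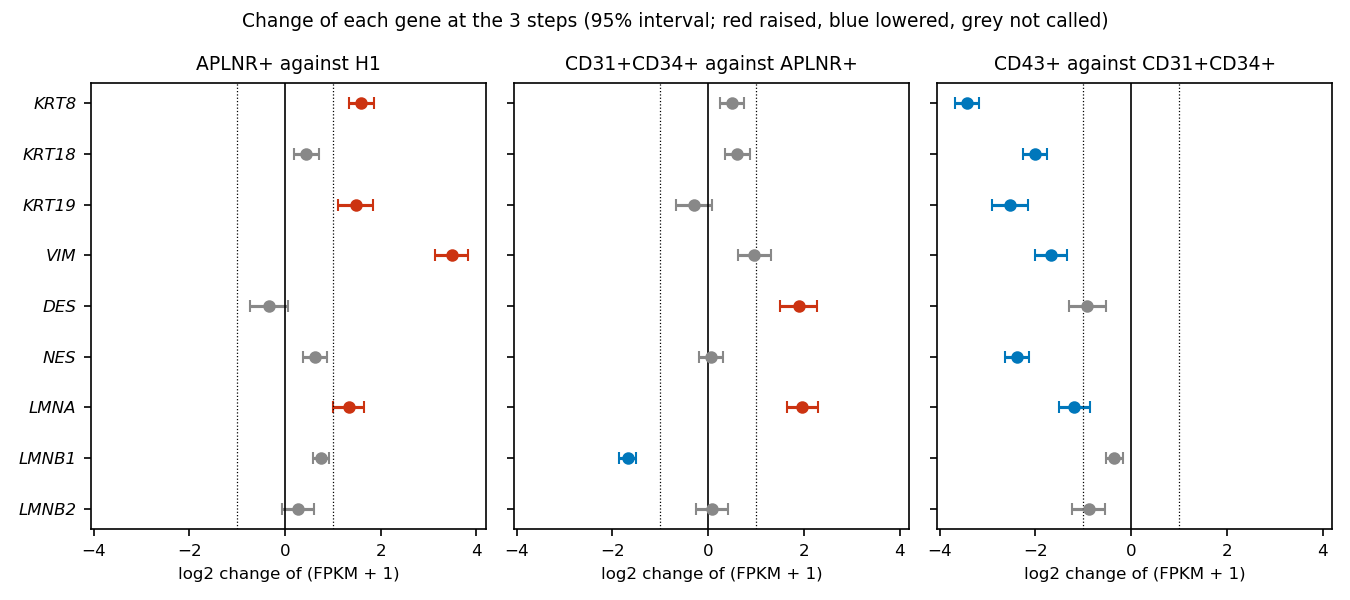
Each panel is a step, with the log2 change of (FPKM + 1) on the horizontal axis, the 95% interval as the bar and dotted lines at the 2-fold threshold. At the last step 6 genes are lowered (blue) and every point lies left of 0, from -3.42 for KRT8 to -0.35 for LMNB1.

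Added together, the 6 cytoplasmic filament genes summed to 604 ± 15.3 FPKM in H1, 1621 ± 98.2 in APLNR+, 2455 ± 212 among CD31+CD34+ and 552 ± 74.8 among CD43+ cells (SD, n = 3). H1 and CD43+ cells, with sums that overlapped (exact permutation p = 0.4), differed in composition. Keratins 8, 18 and 19 made up 86.6% ± 0.0855 of the sum in H1, 66.5% ± 3.38 in APLNR+, 58.9% ± 2.12 among CD31+CD34+ and 43.97% ± 1.53 among CD43+ cells. The share of VIM was 7.02% ± 0.861, 29.8% ± 3.62, 38.4% ± 2.33 and 53.6% ± 1.88 in the same order. Each share differed from that of the population before it with no overlap of libraries (exact permutation p = 0.1, the smallest possible). Since a share is taken within a library, it does not depend on the scaling between libraries. It does compare FPKM between genes, so it rests on the transcript lengths used by the authors.

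The order of the genes changed accordingly. KRT18 was the highest of the 9 in H1, where VIM was sixth and overlapped NES. In APLNR+ cells VIM, KRT8 and KRT18 had overlapping ranges at the top. VIM stood first without overlap in both of the later populations, followed in CD43+ cells by KRT18 and then LMNA. DES was lowest throughout.

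**Figure D3:**
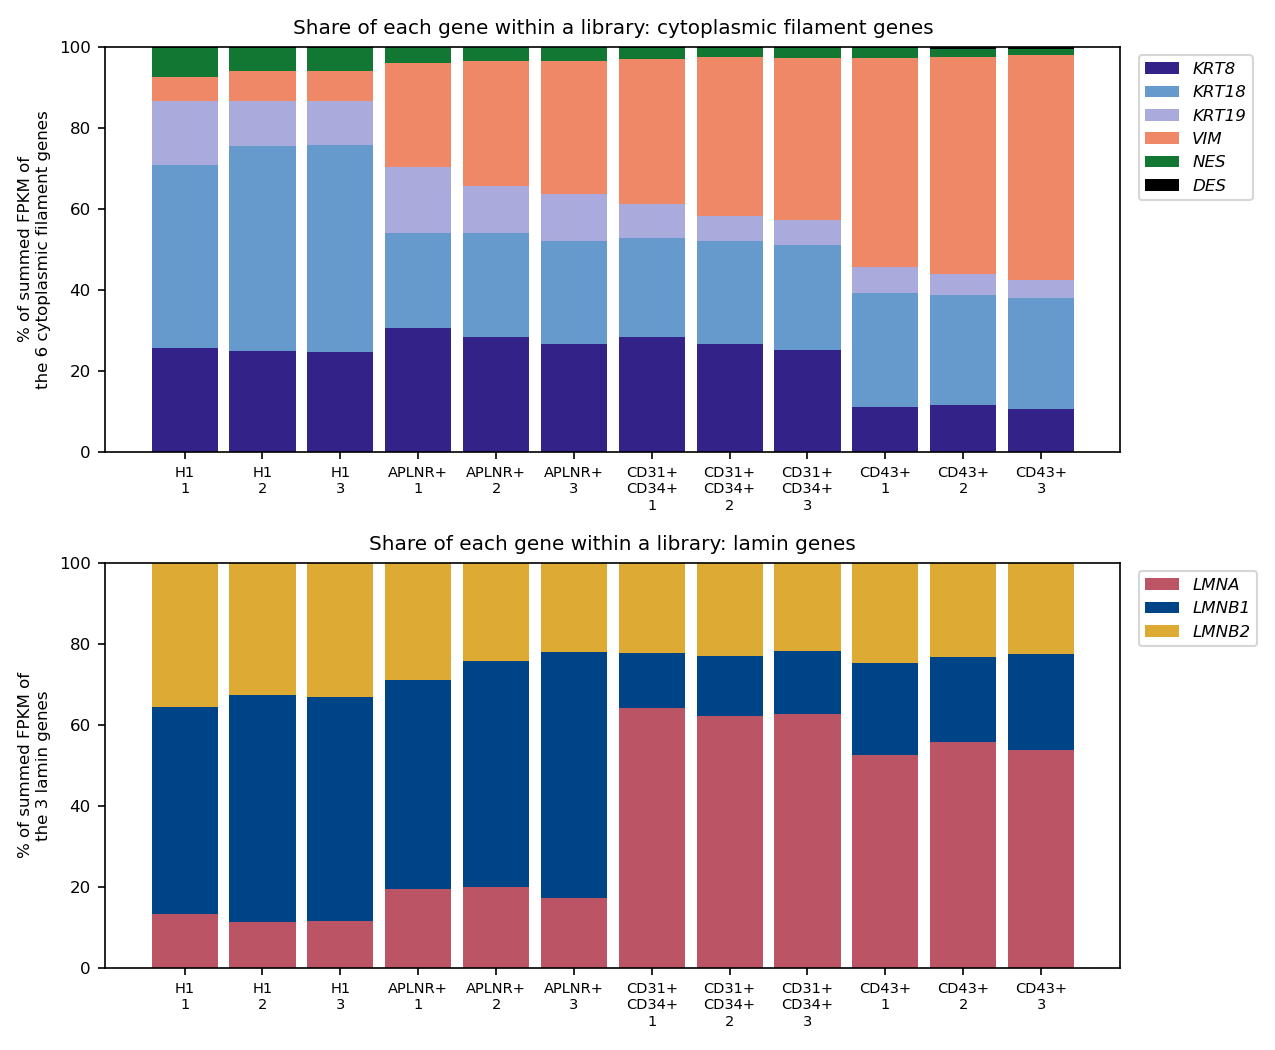
Stacked bars give the share of each gene, in percent of the summed FPKM of the 6 cytoplasmic filament genes (top) and of the 3 lamin genes (bottom), for each of the 12 libraries. VIM widens from 7.02% on average in H1 to 53.6% in CD43+ cells, and LMNA from 18.9% in APLNR+ to 63.0% in CD31+CD34+ cells.

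LMNA was the only gene of the 9 that was raised at both of the first steps. Its values were 29.03, 20.2 and 19.8 FPKM in H1, 62.9, 62.1 and 50.9 in APLNR+, 257, 225 and 213 among CD31+CD34+ and 99.7, 111 and 90.8 among CD43+ cells. The populations did not overlap. The log2 change was 1.33 ± 0.15 from H1 to APLNR+ cells (adjusted p = 1.05e-05) and 1.96 ± 0.15 from there to CD31+CD34+ cells (adjusted p = 1.98e-07). A 2.30-fold fall into CD43+ cells followed (log2 change -1.19 ± 0.15, adjusted p = 2.98e-05), which left LMNA 4.37-fold above H1 (log2 change 2.10 ± 0.15).

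LMNB1, whose decline is a known mark of senescent cells, went the other way at the second step. Its values were 112, 99.8 and 95.7 FPKM in H1, 167, 175 and 179 in APLNR+, 53.6, 54.0 and 52.7 among CD31+CD34+ and 43.3, 41.5 and 40.2 among CD43+ cells. The spread was small within each population and the 4 ranges were apart. The APLNR+ mean was 1.69-fold above H1, below the threshold at a log2 change of 0.75 ± 0.08 (adjusted p = 6.12e-06), though quantile normalization gave 1.02. From APLNR+ to CD31+CD34+ cells LMNB1 was lowered 3.25-fold (log2 change -1.68 ± 0.08, adjusted p = 3.91e-09). The last step brought a log2 change of -0.35 ± 0.08, which was not called. Summed markers of dividing cells spanned 389 to 411 FPKM in H1, 380 to 427 in APLNR+, 264 to 323 among CD31+CD34+ and 161 to 196 among CD43+ cells. Within that list TOP2A, needed for chromosome separation, went from 41.8 ± 7.02 to 7.30 ± 1.44 FPKM at the second step. CDK1 went from 86.3 to 14.3, BUB1 from 26.8 to 12.6, MKI67 from 10.9 to 6.29 and CCNB1 from 154 to 130. Higher after that step were PLK1, a mitotic kinase (27.5 to 42.5), AURKB (54.5 to 72.7) and E2F1 (6.47 to 12.7). The part of dividing cells in the LMNB1 change was not tested.

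LMNB2 was not called at any step. It stood at 77.9, 58.1 and 57.4 FPKM in H1, 93.3, 75.8 and 64.6 in APLNR+, 89.3, 83.2 and 73.4 among CD31+CD34+ and 46.8, 46.5 and 38.2 among CD43+ cells. The first 3 populations overlapped. Its log2 change was 0.27 (95% interval -0.07 to 0.60) at the first step and 0.08 (-0.25 to 0.42) at the second, the latter turning to -0.16 after quantile normalization and to -0.040 without APLNR+ replicate 3. CD43+ libraries were lowest, 1.87-fold below CD31+CD34+ cells on average (log2 change -0.89 ± 0.15, adjusted p = 0.000427), under the fold threshold.

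The make-up of the lamins turned over between APLNR+ and CD31+CD34+ cells. Lamin A/C was 12.01% ± 1.07 of the summed lamin FPKM in H1, 18.9% ± 1.38 in APLNR+, 63.0% ± 1.11 among CD31+CD34+ and 54.0% ± 1.69 among CD43+ cells (SD, n = 3). LMNB1 made up 54.2%, 56.1%, 14.6% and 22.5% in the same order. For every LMNB1 fragment per kilobase there were 0.223 ± 0.0313 of LMNA in H1, 0.339 ± 0.0484 in APLNR+, 4.33 ± 0.403 among CD31+CD34+ and 2.41 ± 0.232 among CD43+ cells. Each consecutive pair of populations was apart in that ratio (exact permutation p = 0.1). The lamin sum itself was 190 ± 25.3 FPKM in H1 and 186 ± 15.4 in CD43+ cells (exact permutation p = 0.8), with 310 ± 14.5 and 367 ± 30.8 between.

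Against H1, CD43+ cells had 2 of the 9 genes raised (VIM and LMNA) and 4 lowered (KRT8, KRT19, NES and LMNB1), with 14.6% and 22.5% of all genes raised and lowered. No gene of the 9 had overlapping libraries, against 76.3% of all genes without overlap. The contrast shares its libraries with the first and the last step, so it is no independent measurement of them. The median log2 change of all genes in it was -0.10, and 0.02 after median-of-ratios scaling, a shift of 0.12 that changed no call among the 9.

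The proteins that bind lamins and filaments were read from the same fit. Over all genes tested, the shares raised and lowered were 8.3% and 7.62% at the first step, 12.5% and 17.1% at the second and 5.58% and 8.79% at the last. Of 15 lamina partners tested, 2 were raised and none lowered from H1 to APLNR+ cells. At the second step 2 were raised and 2 lowered, near those shares, and at the last 5 were lowered and none raised. SUN2, an inner membrane protein that couples the lamina to the cytoskeleton, was the only one of the 15 called at all 3 steps. Its values were 2.39, 1.75 and 1.66 FPKM in H1, 13.0, 9.61 and 9.15 in APLNR+, 30.0, 30.9 and 23.5 among CD31+CD34+ and 7.05, 8.06 and 6.10 among CD43+ cells. Each step had the direction seen for LMNA, with log2 changes of 1.98, 1.34 and -1.85. While LMNA lay higher in CD43+ than in APLNR+ libraries, SUN2 lay lower. SUN1, its relative, showed no such rise at first: means were 38.6 FPKM in H1, 29.2 in APLNR+, 46.3 among CD31+CD34+ and 21.4 among CD43+ cells, and it was called only as lowered at the last step (log2 change -1.08). LEMD2, another inner membrane protein, was lowered with it (-1.08).

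LBR, the lamin B receptor, which holds chromatin at the envelope, moved with LMNB1 at the second step. It fell from 29.8 ± 1.46 FPKM in APLNR+ to 12.2 ± 0.522 in CD31+CD34+ cells (log2 change -1.22 ± 0.12, adjusted p = 1.41e-06). Of the 5 lamin processing enzymes, ZMPSTE24, the protease that trims prelamin A, was the one called at a step, the second, where 17.1% of all genes were lowered. Its mean went from 14.4 ± 1.68 to 3.96 ± 0.705 FPKM between APLNR+ and CD31+CD34+ cells (log2 change -1.64 ± 0.12, adjusted p = 1.35e-07), while its substrate gene LMNA was raised.

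Of 11 linker and desmosome genes tested out of 14 listed, 1 was lowered at the first step, 2 were raised and 3 lowered at the second, and 5 were lowered at the last, where none was raised. Over all genes 7.62% were lowered at the first step, 12.5% raised and 17.1% lowered at the second, and 8.79% lowered at the last. PLEC, whose product plectin ties filaments to other structures of the cell, rose from 21.9 ± 1.86 to 104 ± 5.68 FPKM at the second step (log2 change 2.21 ± 0.08) and fell to 17.8 ± 0.941 in CD43+ cells (-2.49 ± 0.08, adjusted p = 5.22e-10). JUP (plakoglobin), found in desmosomes and in endothelial junctions, took the same course, with 21.7, 60.0 and 20.3 FPKM in the same 3 populations. Lowered at the second step were DST, a linker related to PLEC, from 51.5 to 12.5 FPKM, and the desmosomal cadherins DSG2, from 17.4 to 5.16, and DSC2, from 10.9 to 3.47. The desmosomal cadherins and the plakin DST were lowered where KRT8 and KRT18 had their highest level.

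**Figure D4:**
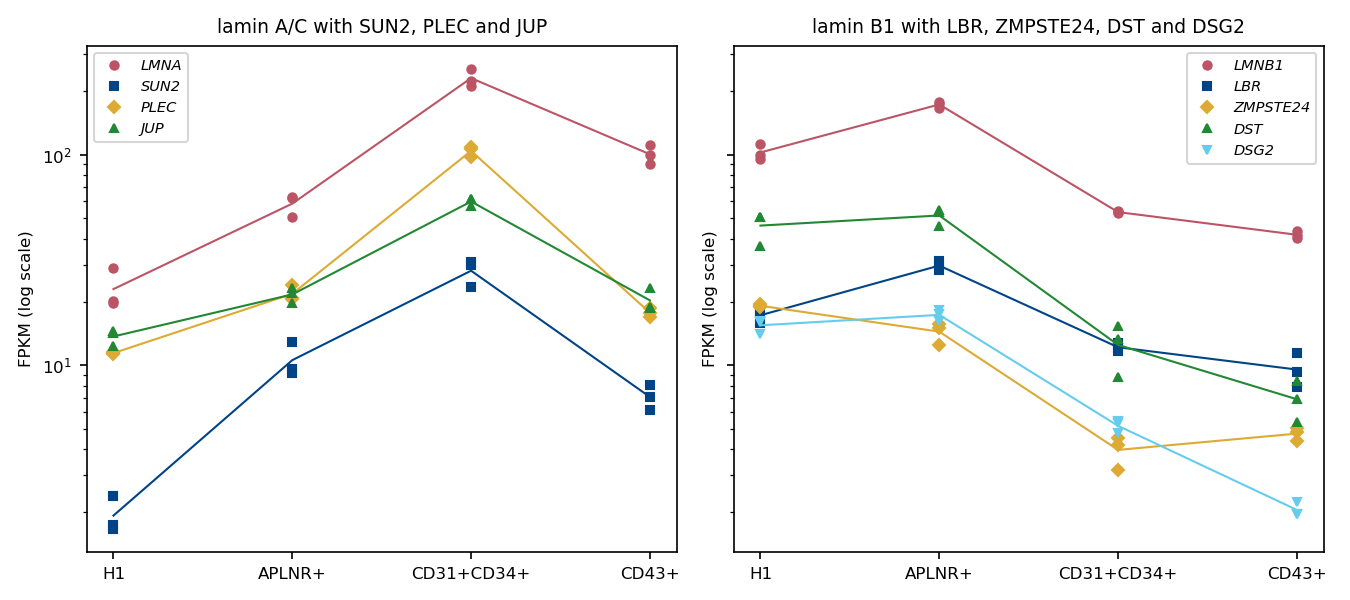
FPKM on a log axis for the 12 libraries (points) and population means (lines) of LMNA with SUN2, PLEC and JUP on the left, and of LMNB1 with LBR, ZMPSTE24, DST and DSG2 on the right. The left genes peak in CD31+CD34+ cells (SUN2 at 28.1 FPKM on average) and those on the right are lower there than in APLNR+ cells (DSG2 at 5.16 against 17.4).

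Other cytoplasmic filament genes stayed low. Of 9 listed, 7 passed the filter, and 2 were raised at the first step, 2 raised and 2 lowered at the second and none called at the last. Over all genes 8.3% were raised at the first step, and 12.5% raised and 17.1% lowered at the second. None of the listed genes called had a mean of 10 FPKM in the higher population, the level required here for naming a gene.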

How the data were processed

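RNA-seq had been done on H1 cells and 3 sorted populations, with 3 libraries each. The authors deposited 1 table of FPKM values per gene symbol. The submitters' processing notes name hg19, BWA, Bowtie and RSEM, with no role or order; annotation, strand and scaling are not given in the sources used here. Of 58366 lines, 1 text line was left out, and of the 345 symbols on more than 1 line the line with the highest mean was used. Genes of at least 1 FPKM in 3 libraries were tested on log2(FPKM + 1) with limma 3.58.1 (R 4.3.3; all 12 libraries in 1 model, eBayes with trend), and called at a Benjamini-Hochberg adjusted p under 0.05 and a 2-fold change. The fit was checked on simulated data. Because 1 is added, the change of low genes is understated. Shares and ratios were compared with exact two-sided permutation tests (scipy 1.17.1). Relative depth was read from the steps between low FPKM values, as their most frequent ratio to CD43+ replicate 3. In the other libraries 18 to 102 low genes shared that ratio, so the estimate is approximate.

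The members and the lists of related genes and markers were chosen with earlier results of these data known. From each related list, genes were named where they were called at a step, did not overlap, reached a mean of 10 FPKM in the higher population and were among the 3 largest changes in their direction. For each member the 3 genes with the highest Pearson r over the 12 libraries were named among genes that reached a mean of 10 FPKM in some population; those of NES are not reported here. RefSeq windows (GRCh38.p14) matched 6 of the 9 members; coordinates are of that build, not of hg19. Alternatives were another pseudocount, 2 other filters, 3 scalings, the replicate number as a block, the compared populations alone, eBayes without trend, no minimum change, replicates 2 and 3 alone, and leaving out each library.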

Additional observations from a re-analysis of the deposited data

How the results depend on the processing

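Over 23 alternatives and 36 log2 changes of the 9 genes, 801 of 824 values kept their direction and their side of the call threshold, 20 became a call and 3 turned direction. No call was lost among these values. They leave out DES under the filter at a mean of 5 FPKM, which removed the gene and with it its call at the second step. Without the 2-fold minimum, 7 of the 9 genes were called at the first step and 6 at the second, and the counts over all genes became 8594, 10948, 7961 and 11076 at the 3 consecutive steps and for CD43+ against H1, in place of 2363, 4400, 2133 and 5501. A pseudocount of 0.1 gave 3632 at the first and 3605 at the last step. A mean of at least 5 FPKM gave 1193 at the first step, 1313 at the last and 3309 for CD43+ against H1; it also removed DES. Dropping the minimum lets more genes pass and the higher filter tests fewer, 8622, by construction. A smaller pseudocount enlarges the log2 change of low genes by construction, as for DES at the last step (-0.91 to -1.18). How much of the move in the counts this made up was not tested. From APLNR+ to CD31+CD34+ cells, quantile normalization turned NES to -0.15 and LMNB2 to -0.16, and leaving out a library moved LMNB2 between -0.040 and 0.22; the cause was not tested. Without CD43+ replicate 2, DES (log2 change -1.13) passed against CD31+CD34+ cells and KRT18 (-1.03) against H1, and without CD31+CD34+ replicate 1 DES did (-1.04).

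With the replicate number as a block, the 9 genes kept their 4, 3, 6 and 6 calls, and all genes gave 2369, 4410, 2140 and 5506. The deviations of same-numbered libraries correlated at -0.02 to 0.43 over 18 pairs (median 0.20). Those of differently numbered libraries correlated at -0.40 to 0.29 over 36 pairs (median -0.15), and 7 of 12 libraries correlated best with their own number. Same-numbered libraries were thus more alike on average, but this was seen only for replicate 1. Replicate 1 libraries correlated at 0.20 to 0.43 with each other and at -0.40 to -0.06 with replicates 2 and 3. Among replicates 2 and 3, pairs of the same number lay between -0.02 and 0.27. Pairs of different numbers among them lay between 0.02 and 0.29. Deviations cancel within a population, so a positive same-number average brings a negative one for the other pairs. The labels do not say what the number stands for, and the main fit does not use it. Replicates 2 and 3 alone, the deeper ones by the estimate, gave 4, 3, 6 and 6 calls as well.

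The limits are those of 3 libraries a population from a single line, with no counts to set a detection limit. FPKM values sum to between 567793 and 1564449 in a library. EEF1A1, a gene that every cell uses, is listed at 0 in 6 libraries, replicates 2 and 3 of H1, APLNR+ and CD43+, and at 1839 to 4616 FPKM in the other libraries, so a value of 0 in this table can be a failed estimate. Protein was not measured, and lamin A and lamin C share 1 symbol.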

Other observations

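For 8 of the members, the genes whose levels ran most nearly parallel over the 12 libraries are given as a description, since the points are 4 populations of 3 libraries and 7663 genes were compared for each member. VIM ran with PRTG, ITGA5 and MSX1 (Pearson r from 0.997 to 0.994). PRTG encodes an immunoglobulin-family membrane protein and ITGA5 the fibronectin receptor subunit; their means went from 1.13 and 6.46 FPKM in H1 to 131 and 169 in CD31+CD34+ cells, and to 28.8 and 45.5 in CD43+ cells. KRT19 ran with TAGLN, an actin-binding gene of smooth muscle (r = 0.995), at 76.4, 466, 274 and 15.7 FPKM over the 4 populations in order. KRT8 ran with PLAU, CRABP2 and SLC2A3, and KRT18 with CAPG, SPRY2 and PLXNA1. LMNA was most like EFNB1, PKIG and PPT2 (r from 0.996 to 0.994). LMNB1 was most like SHISA9, LEFTY1 and IDI1; LEFTY1, an inhibitor of nodal signalling, stood at 5.62, 15.2, 0.916 and 0.587 FPKM. DES was most like PSMD8, CFL1 and E2F4. LMNB2 had the weakest partners, VWA1, KLC2 and UPP1 (r from 0.954 to 0.940).

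Replicate 1, the shallowest library of each population by estimated depth, lay on one side of the other replicates for some members. In all 4 populations it was the lowest library for KRT18, VIM and DES and the highest for NES and LMNB2, 5 of the 9 members. The share of all genes that did so was not counted, so this is not shown to be particular to the members. For VIM, replicate 1 of each population taken alone gave log2 changes of 3.38, 1.02 and -1.72 at the 3 steps, beside 3.48, 0.97 and -1.67 over all replicates. Wider gaps were seen for LMNA at the first step (1.09 beside 1.33), NES at the first step (0.42 beside 0.63) and KRT8 at the last (-3.61 beside -3.42), and LMNB2 turned direction at the second (-0.06 beside 0.08).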
